A study of Mus musculus with 6 samples.

Results

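The genes described here are the nuclear genes for subunits of respiratory complex I, followed in brown fat of PHOSPHO1-knockout and wild-type mice. They were chosen by name: protein-coding genes whose mouse symbol starts with Nduf followed by a (with a digit or b after it), b, c, s or v. This pattern leaves out the Ndufaf assembly factors. It found 38 genes among the 37620 Ensembl gene IDs of the count tables, and all 38 passed the filter on low counts, so no member was lost or kept through its level. The gene for the distal subunit Ndufb1 was not analysed here.

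Complex I, the NADH:ubiquinone oxidoreductase, takes electrons from NADH, passes them along iron-sulfur clusters to ubiquinone, and pumps protons across the inner mitochondrial membrane. Its matrix arm holds the core subunits that bind NADH and quinone, its membrane arm holds the proton pumps that the mitochondrial genome encodes, and a shell of accessory subunits surrounds both. Brown fat burns fuel to make heat, and there the uncoupling protein Ucp1 lets protons back across the membrane without making ATP, so the respiratory chain can run fast.

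The study asked how gene expression differs between brown fat of the KO genotype and that of WT mice. The study used libraries KO 1, 2 and 3, whose labels name a knockout of Phospho1 (an enzyme that dephosphorylates phosphocholine and phosphoethanolamine), with WT 1, 2 and 3 as controls. Each of the 6 libraries pooled 3 mice aged 6 weeks on a C57BL/6 background, and the labels give neither the sex nor how the allele was made. The material was the layer of mature adipocytes that floats after collagenase digestion, and mRNA libraries were made from it.

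Library totals ran from 10576800 to 14239307 counts. Phospho1 had 18, 15 and 17 counts in KO libraries and 13, 5 and 5 counts in WT libraries (log2 fold change 1.53, adjusted p = 0.0563 by edgeR). Its counts were thus not lower in the libraries labelled KO, and below, KO and WT mean libraries with those labels. Mitochondrially encoded genes made up 39.1%, 54.3% and 56.5% of the counts in KO libraries and 40.7%, 39.3% and 54.3% in WT libraries. Brown adipocyte markers were present in every library, with Ucp1 at 4196 ± 588 CPM in KO and 2664 ± 545 CPM in WT (SD, n = 3 each; adjusted p = 0.113 by edgeR). CPM stands for the count divided by the library size, in units of 1e6, after TMM scaling, which adjusts for differences in composition.

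The complex I subunit genes mostly had higher levels in KO than in WT libraries, with few passing the test. By edgeR's quasi-likelihood test with Benjamini-Hochberg adjustment over 12068 genes, Ndufc1 and Ndufb2 passed an adjusted p of 0.05 and were higher in KO. That is 2 of 38 genes, against 1.63% of all tested genes called higher. No subunit gene was called lower, against 7.52% of all tested genes. At an adjusted p under 0.1, 12 subunit genes were higher, against 6.2% of all genes, and none were lower, against 13.5%. At an unadjusted p under 0.05, 26 were higher and 0 lower, against 12.3% and 18.6% of all genes. DESeq2 called 11 higher, against 4.2% of all genes, and limma-voom 1, against 1.24%.

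The fitted log2 fold change, KO over WT, was above 0 for 37 of 38 subunit genes, against 51.4% of all genes, and Ndufs1 was the exception. The median was 0.70 over the subunit genes and 0.03 over all tested genes. In 18 of 38 every KO library lay above every WT library, against 15.8% of all genes, and in 0 did every KO library lie below, against 19.6%. Scaling by total counts shifted the median of all genes to -0.23. The subunit median then was 0.42, and its distance from the median of all genes was 0.66, against 0.67 with TMM scaling. A change of scaling shifts all genes nearly alike, so this distance could hardly change. These p-values measure the spread between the pooled libraries. In bulk samples, fewer cells of a type and less RNA per cell cannot be told apart.

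**Figure D1:**
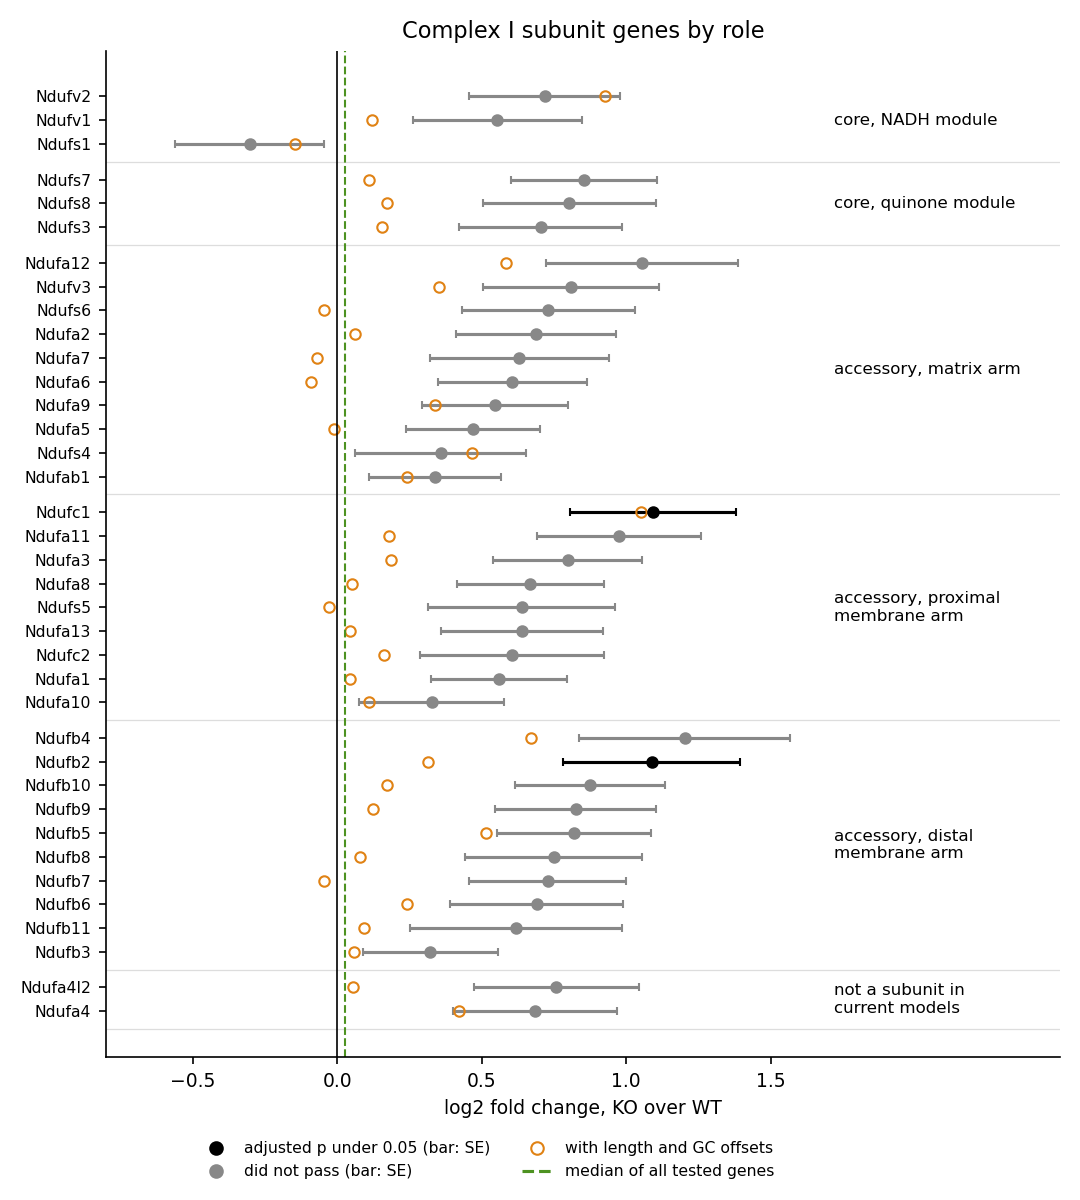
Log2 fold change, KO over WT, of 37 complex I subunit genes, grouped by role, with the standard error as a bar; open circles show the value after offsets for the length and GC content of the main transcript. Filled points lie right of 0 for every gene drawn but Ndufs1, which lies left of it, and most open circles lie nearer to 0 than the filled points.

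The core subunits that take electrons from NADH gave unlike values. Ndufv1 binds NADH and the flavin that accepts its electrons, and it had 990, 592 and 681 CPM in KO libraries and 499, 684 and 359 CPM in WT libraries. Its groups overlapped, since WT 2 lay above KO 2 and KO 3, and its log2 fold change was 0.55 (SE 0.29, adjusted p = 0.217). Ndufv2, an iron-sulfur partner of Ndufv1, had 1112, 881 and 1118 CPM in KO libraries and 551, 840 and 501 CPM in WT libraries. Here every KO library lay above every WT library, though KO 2 and WT 2 lay close together, and the log2 fold change of 0.72 (SE 0.26) had an adjusted p of 0.0948.

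Ndufs1, the largest subunit of the complex and the carrier of several iron-sulfur clusters, had 564, 403 and 303 CPM in KO libraries and 544, 513 and 508 CPM in WT libraries. The WT libraries lay close together and the KO libraries spread out, with KO 1 above all WT libraries and KO 2 and KO 3 below them. Its log2 fold change was -0.30 (SE 0.26, adjusted p = 0.433), so it was not called lower. The balance between Ndufs1 and its partners can be read without any scaling of libraries, as a ratio of counts within each library. Ndufs1 had 0.569, 0.682 and 0.444 counts for each Ndufv1 count in KO libraries and 1.09, 0.751 and 1.42 in WT libraries. Against Ndufv2 the ratio was 0.507, 0.458 and 0.271 in KO libraries and 0.987, 0.611 and 1.015 in WT libraries. In both ratios every KO library lay below every WT library, with WT 2 the nearest WT library. These ratios were chosen after the values were seen and carry no test. Ndufs1 also has the longest main transcript of the 38 genes, at 2590 bases, against 1661 for Ndufv1 and 1697 for Ndufv2.

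None of the quinone-side core subunits passed the test, against 1.63% of all tested genes called higher and 7.52% lower. Ndufs7 carries the last iron-sulfur cluster before quinone, and it had 347, 304 and 379 CPM in KO libraries and 157, 251 and 161 CPM in WT libraries. Its groups did not overlap, and its log2 fold change of 0.85 (SE 0.25) had an adjusted p of 0.0531.

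Ndufs8, another iron-sulfur subunit, had 485, 381 and 528 CPM in KO libraries and 216, 397 and 186 CPM in WT libraries. Ndufs3, a core subunit without a cofactor, had 235, 143 and 178 CPM in KO libraries and 114, 148 and 78.9 CPM in WT libraries. Both overlapped only because WT 2 lay just above KO 2. The log2 fold change was 0.80 (SE 0.30, adjusted p = 0.102) for Ndufs8 and 0.70 (SE 0.28, adjusted p = 0.119) for Ndufs3.

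Among the 10 accessory subunits of the matrix arm, 0 passed the test, against 1.63% of all tested genes called higher and 7.52% lower. All 10 log2 fold changes were above 0, against 51.4% of all genes, and their median was 0.62. Their main transcripts had 992.5 bases at the median. In the shortest length decile of all tested genes, up to 1042 bases, the median log2 fold change was 0.59. Ndufa12, a late-joining subunit that takes the place of the assembly factor Ndufaf2, stood highest with 158, 230 and 388 CPM in KO libraries and 87.4, 148 and 138 CPM in WT libraries. The KO libraries all lay above the WT libraries, KO 1 by little, and the log2 fold change was 1.05 (SE 0.33, adjusted p = 0.0646). Ndufab1, the mitochondrial acyl carrier protein, stood lowest at 0.34 (SE 0.23, adjusted p = 0.321). It had 72.1, 64.5 and 93.1 CPM in KO libraries and 56.4, 61.6 and 63.6 CPM in WT libraries, so the groups did not overlap although the difference was small. Ndufa9, which has the fold of a short-chain dehydrogenase and sits where the arms meet, had 566, 390.4 and 470.5 CPM in KO libraries and 328, 399 and 251 CPM in WT libraries, with WT 2 above KO 2, at 0.55 (SE 0.25, adjusted p = 0.167) on the log2 scale. Ndufs4, a subunit whose loss in mice causes a Leigh-like brain disease, was at 0.36 (SE 0.30, adjusted p = 0.416). The zinc-binding subunit Ndufs6 was at 0.73, Ndufv3 at 0.81 and Ndufa6, which anchors an acyl carrier protein, at 0.61.

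In the proximal part of the membrane arm, next to the matrix arm, 1 of 9 accessory subunits passed the test and was higher. Over all tested genes 1.63% were called higher. The median log2 fold change was 0.64 at a median main transcript of 683 bases, against 0.59 over all genes of the shortest length decile. Ndufc1 (ENSMUSG00000037152), a small membrane subunit, had 211, 207 and 386 CPM in KO libraries and 106, 149 and 122 CPM in WT libraries. All KO libraries lay above all WT libraries, and KO 3 stood well above KO 1 and KO 2. Ndufc1 rose by 1.09 on the log2 scale (SE 0.29, adjusted p = 0.0399), averaging 268 ± 102 CPM in KO and 126 ± 22.1 CPM in WT (SD, n = 3 each). Leaving out KO 1 or WT 2 kept this call, and the call was lost without KO 2, KO 3, WT 1 or WT 3.

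Of the other proximal subunits, Ndufa11 came nearest to the threshold, at 0.98 (SE 0.28, adjusted p = 0.0512) with no overlap between groups. Ndufa3 had 313, 299 and 375 CPM in KO libraries and 161, 256 and 151 CPM in WT libraries, again without overlap, at 0.80 (SE 0.26, adjusted p = 0.0702). Ndufa1, an X-linked subunit needed for assembly, had 308, 309 and 407 CPM in KO libraries and 220, 274 and 200 CPM in WT libraries, without overlap, at 0.56 (SE 0.24, adjusted p = 0.134). Ndufa13 had 436, 321 and 428 CPM in KO libraries and 243, 347 and 171 CPM in WT libraries, with WT 2 above KO 2, at 0.64 (SE 0.28, adjusted p = 0.148). Ndufa10, which has the fold of a nucleoside kinase, was lowest of the 9. It had 387, 576 and 677 CPM in KO libraries and 405, 451 and 451 CPM in WT libraries, so KO 1 lay below every WT library, and its log2 fold change was 0.33 (SE 0.25, adjusted p = 0.383).

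The distal membrane arm, at the far end from the matrix arm, had a median log2 fold change of 0.78 over 10 accessory subunits. Their median main transcript had 718 bases, and over all genes of the shortest length decile the median was 0.59. Of the 10, 1 passed the test and was higher, against 1.63% of all tested genes called higher. Ndufb2 (ENSMUSG00000002416) had 164, 186 and 309 CPM in KO libraries and 73.1, 136 and 101 CPM in WT libraries. Every KO library lay above every WT library, with KO 3 highest by far. Ndufb2 rose by 1.09 on the log2 scale (SE 0.31, adjusted p = 0.0473), averaging 220 ± 78.5 CPM in KO and 103 ± 31.8 CPM in WT (SD, n = 3 each). As with Ndufc1, leaving out KO 1 or WT 2 kept this call and leaving out any other library ended it. With total counts only as the scaling neither passed (adjusted p = 0.119 for Ndufc1 and 0.131 for Ndufb2), and with limma-voom Ndufb2 had an adjusted p of 0.0507. No length offsets kept either call.

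Ndufb4 had the highest log2 fold change of the 38 genes, 1.20 (SE 0.36), and its adjusted p of 0.0583 missed the threshold. It had 89.8, 125 and 236 CPM in KO libraries and 41.3, 83.7 and 70.9 CPM in WT libraries, so the groups did not overlap while KO 3 held more CPM than KO 1 and KO 2 together. Ndufb10, one of the cysteine-motif subunits on the intermembrane-space side, was at 0.88 (SE 0.26, adjusted p = 0.0537), and Ndufb9, which anchors an acyl carrier protein in the membrane arm, was at 0.83 (SE 0.28, adjusted p = 0.0772). Ndufb7, also a cysteine-motif subunit, had 191, 159 and 213 CPM in KO libraries and 107, 154 and 78.8 CPM in WT libraries, just without overlap, at 0.73 (SE 0.27, adjusted p = 0.102). Ndufb3 was lowest of the 10, with 208, 179 and 185 CPM in KO libraries and 132, 193 and 133 CPM in WT libraries. WT 2 lay above KO 2 and KO 3, and the log2 fold change was 0.32 (SE 0.23, adjusted p = 0.359).

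**Figure D2:**
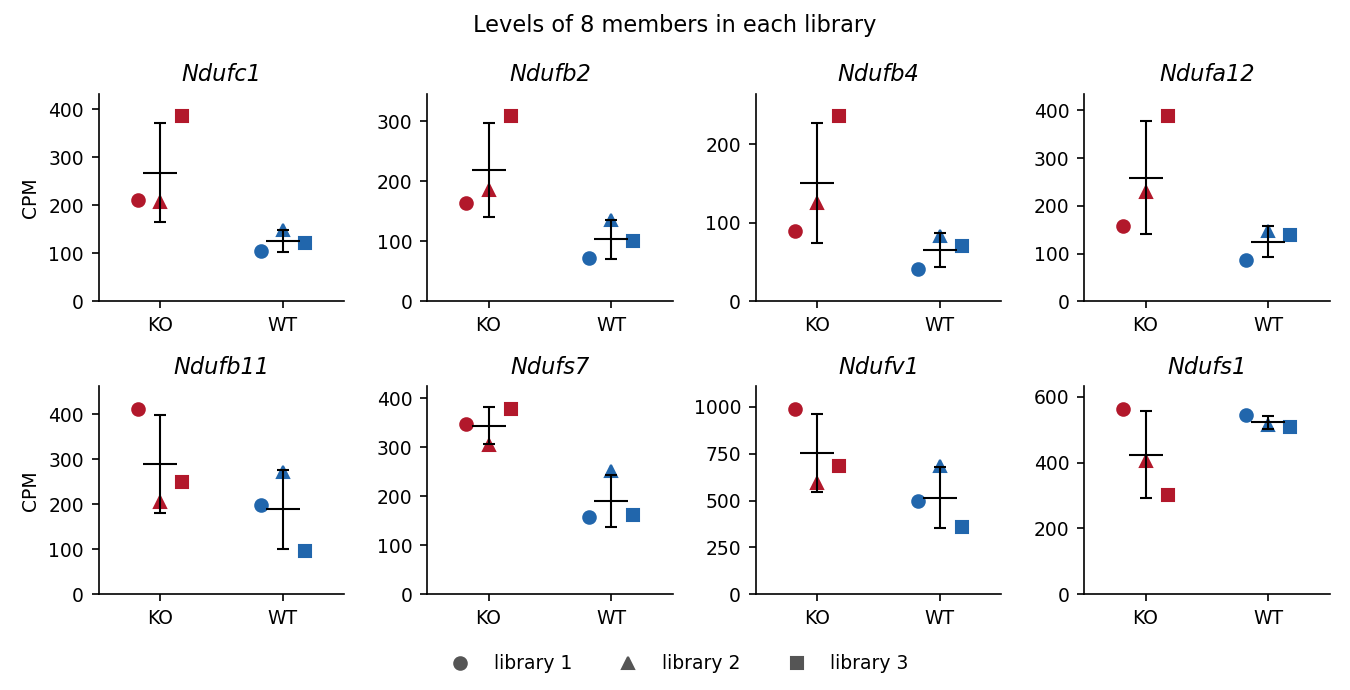
CPM of 8 subunit genes in each library, KO left of WT, with the mean and SD as lines (n = 3 each). Ndufc1, Ndufb2, Ndufb4, Ndufa12 and Ndufs7 show every KO library above every WT library, Ndufb11 and Ndufv1 overlap, and Ndufs1 shows KO libraries spread from 303 to 564 CPM around WT libraries at 508 to 544 CPM.

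Ndufa4 and Ndufa4l2 fit the naming rule but are not complex I subunits in current models. Ndufa4 is now assigned to cytochrome c oxidase, and Ndufa4l2 is its paralog, known for induction in low oxygen. Ndufa4 had 1470.5, 927 and 1318 CPM in KO libraries and 689, 1039 and 584 CPM in WT libraries, with WT 2 above KO 2. Ndufa4l2 was scarce, with 11.7, 8.28 and 11.6 CPM in KO libraries and 5.07, 7.58 and 6.01 CPM in WT libraries, and did not overlap. Neither passed the test, at log2 fold changes of 0.68 (adjusted p = 0.129) and 0.76 (adjusted p = 0.103). Without both genes the median of the other 36 was again 0.70.

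Levels per kilobase of the main transcript spanned a wide range. Ndufa4 was highest, at 2030 ± 459.6 CPM per kb in KO and 1263 ± 391 in WT (SD, n = 3 each). Ndufb9 followed with 1742 ± 452 in KO and 983 ± 272 in WT, and Ndufb8 with 1628 ± 338 in KO and 969 ± 396 in WT. The SD is a spread between libraries that all these genes share, so it does not show whether neighbours differ, which was not tested. The lowest were Ndufa4l2, at 11.3 ± 2.08 in KO and 6.66 ± 1.35 in WT, and Ndufs5, at 31.4 ± 10.2 in KO and 20.1 ± 6.63 in WT. The order depends on which transcript gives the length: by the median protein-coding transcript Ndufa4 and Ndufa4l2 kept their places in WT, while Ndufb2 stood in place 36 of 38, against 20 by the main transcript.

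Ndufs5, a cysteine-motif subunit, has a near-identical copy among the counted genes, with 55.3% as many counts as Ndufs5 over all libraries. The part of this copy in the low value of Ndufs5 was not tested. The processed pseudogene BC002163 is 99.4% identical to Ndufs5 over 319 bases. It held 66, 132 and 150 counts in KO libraries and 44, 98 and 76 counts in WT libraries, while Ndufs5 itself held 256, 157 and 136 counts in KO libraries and 197, 201 and 76 counts in WT libraries. Reads from such copies cannot be told apart. With both summed, the log2 fold change of Ndufs5 was 0.77 (adjusted p = 0.0731), against 0.64 (adjusted p = 0.199) alone. Copies of Ndufa12 held 60, 591 and 191 counts in KO libraries and 42, 93 and 77 counts in WT libraries, 7.71% of the counts of Ndufa12 over all libraries. For the 15 other members with copies of at least 85% identity, the copies held at most 5.11% of the member's counts. Strand use in counting was not stated, so reads from overlapping genes on opposite strands cannot be told apart either. By share of exonic bases the widest overlap was that of Ndufb6, which shares 39% with Smim27, a gene with 29 to 54 counts per library. By number of bases it was that of Ndufb5, which shares 616 with Mrpl47, a gene with 263 to 744 counts per library.

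Promoter letters were read for the members past the threshold and the core subunits, to show whether the promoters hold motifs of known regulators of respiratory genes. RefSeq windows of 300 bases (GRCm38.p6, 250 before the start and 50 after it) were given for 33 of the 38 genes, as 35 windows. The windows of Ndufc1 (chr3:51408906-51409205, minus strand), Ndufs7 (chr10:80249199-80249498, plus strand) and Ndufs3 (chr2:90904672-90904971, minus strand) hold a searched motif and are printed 5′ to 3′ on the gene's strand, with the motif in capitals: AAGATGGC, the YY1 motif, in Ndufc1 and Ndufs7, and CCGGAAGT, the GABP motif read on the opposite strand, in Ndufs3.
Ndufc1: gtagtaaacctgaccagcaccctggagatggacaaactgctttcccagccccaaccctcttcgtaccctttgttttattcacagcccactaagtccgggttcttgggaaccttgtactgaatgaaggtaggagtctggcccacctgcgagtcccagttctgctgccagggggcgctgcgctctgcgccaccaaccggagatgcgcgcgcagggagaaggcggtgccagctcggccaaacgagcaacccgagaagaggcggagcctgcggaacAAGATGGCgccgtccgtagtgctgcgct
Ndufs7: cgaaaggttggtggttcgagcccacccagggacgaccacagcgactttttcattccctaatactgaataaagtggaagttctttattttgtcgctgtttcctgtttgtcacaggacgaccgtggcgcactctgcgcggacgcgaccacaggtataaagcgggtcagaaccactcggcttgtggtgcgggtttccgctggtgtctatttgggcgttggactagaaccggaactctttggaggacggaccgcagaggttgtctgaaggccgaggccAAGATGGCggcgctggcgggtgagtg
Ndufs3: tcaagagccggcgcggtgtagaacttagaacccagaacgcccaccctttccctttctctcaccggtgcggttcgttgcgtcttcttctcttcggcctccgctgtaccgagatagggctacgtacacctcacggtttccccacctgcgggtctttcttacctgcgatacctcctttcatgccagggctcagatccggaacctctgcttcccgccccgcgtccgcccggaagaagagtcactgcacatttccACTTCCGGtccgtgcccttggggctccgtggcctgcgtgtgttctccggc
Both strands of each window were searched. AAGATGGC was found in 7 of 35 subunit windows (20%), in Ndufa3, Ndufa9, Ndufb8, Ndufc1, Ndufs4, Ndufs6 and Ndufs7, against 2.75% of 32851 windows of all genes. All 7 matches lay on the gene's own strand, 23 to 39 bases into the transcript, and in all 7 the ATG inside the motif is an annotated start codon. Over all genes, 178 of 567 matches on the gene's strand (31.4%) held an annotated start codon. Only 284 of those 567 lay after the start, as all 7 subunit matches did, so 31.4% is not a like share. The NRF1 core GCGCATGC was found in 3 subunit windows, in Ndufa6, Ndufa8 and Ndufa11 (8.57%), against 2.71% of all windows. CCGGAAGT was found in 1 (2.86%) against 3.89%, and the ERR motif TCAAGGTCA in 0 against 0.423%. Ndufb2, the other gene past the threshold, had no match among these letters. These matches describe letters, not bound sites.

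Transcript length tracked fold change across the whole table, and complex I transcripts are short. Main transcripts of the subunit genes ran from 419 bases in Ndufa1 to 2590 in Ndufs1, with a median of 868, against a median of 2715 over all tested genes. Across 11863 tested genes with a length, log2 fold change and length had a Spearman rho of -0.58, as a description across genes that share libraries. Across the 38 subunit genes rho was -0.22, and -0.16 without Ndufs1. With the longest transcript of each gene it was 0.03, and with the median transcript -0.02. The GC content of the main transcript gave 0.39.

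The subunit genes can be set beside other genes of like length. The shortest decile of all tested genes, with transcripts up to 1042 bases, held 24 of the 38, with a median log2 fold change of 0.71 for these and 0.59 for all genes there. Decile 2 held 7, Ndufc1 and Ndufa12 among them, with medians of 0.70 for the subunit genes and 0.45 for all. Decile 3, from 1488 to 1876 bases, held 5, Ndufs4, Ndufv1, Ndufv2 and Ndufv3 among them, with medians of 0.72 and 0.34. Ndufa10, in decile 4, had 0.33 against a median of 0.20 there, and Ndufs1, in decile 5, had -0.30 against 0.08. In the longest decile, which held no subunit gene, the median was -0.76.

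**Figure D3:**
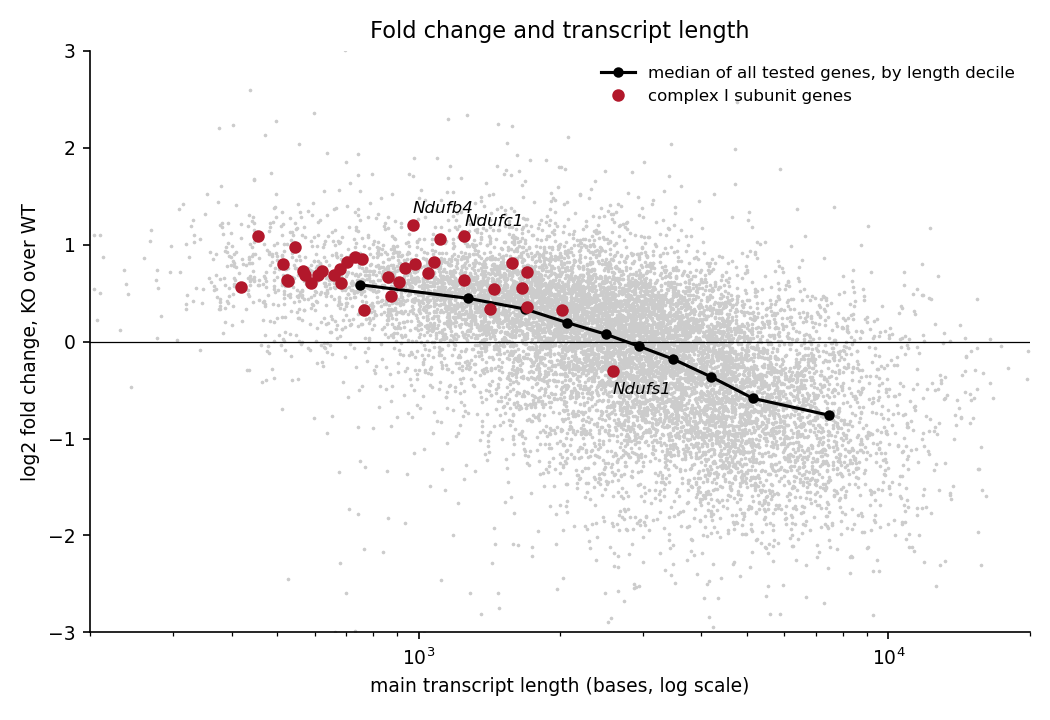
Log2 fold change, KO over WT, against the length of the main transcript in bases (log scale) for tested genes in grey and 37 complex I subunit genes in red, with the median of all genes in each length decile as a black line; a few genes beyond the axes are not drawn. Most subunit genes sit on or above the line at its short end, and Ndufs1 sits below it.

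Offsets for each library's trend on main transcript length and GC content were put into the same edgeR model, a setting chosen after the data were seen. The subunit median was then 0.14, against 0.04 for all genes, with 31 of 38 above 0, against 53% of all genes. None passed the adjusted test, against 0.00829% of all genes called higher and 0% lower. At an unadjusted p under 0.05, 5 subunit genes were higher, against 11.7% of all genes, and 0 lower, against 11.2%. The transcript chosen for the length matters. With offsets for the median transcript and GC content, which was planned, the subunit median was 0.46, against 0.06 for all genes, with 37 of 38 above 0, against 53.8%. None passed the adjusted test, against 0.671% of all genes called higher and 1.17% lower, and 13 were higher and 0 lower at an unadjusted p under 0.05, against 13.2% and 13%. What produced the length trend was not tested, and offsets of this kind also take out any real change that goes with length.

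Single members had unlike values with the offsets. Ndufc1 was nearly unmoved, at 1.05 with offsets (SE 0.31, adjusted p = 0.0888). Ndufv2 was higher with offsets than without, at 0.93 (SE 0.21, adjusted p = 0.0611). Ndufb4 had 0.67, Ndufa12 0.59, Ndufb5 0.52 and Ndufs4 0.47 with offsets, while Ndufa11 had 0.18 and Ndufs7 0.11. Ndufs1 had -0.15, and 6 others had values between -0.09 and -0.01: Ndufa5, Ndufa6, Ndufa7, Ndufb7, Ndufs5 and Ndufs6. Ndufb2 shows how much the choice of transcript matters, since it had 0.32 with its main transcript of 455 bases and 1.62 with its longest annotated one of 4371 bases. Ndufb7 likewise had -0.05 with 623 bases and 0.82 with 4435 bases.

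The libraries of a group were not alike for these genes. Subunit genes took 3.08%, 2.75% and 3.50% of the nuclear counts in KO libraries and 1.99%, 2.59% and 1.76% in WT libraries. Relative to a gene's own mean of the 6 libraries, the median log2 ratio of subunit genes was 0.47, 0.11 and 0.51 in KO libraries and -0.49, 0.05 and -0.64 in WT libraries. KO 2 and WT 2 thus lay close together between the extremes. WT 2 was the highest WT library for 36 of 38 subunit genes, against 40% of all genes, and KO 2 was the highest KO library for 0, against 27.4%. KO 3 was highest in KO for 22, against 32.8%, and KO 1 for 16, against 39.7%.

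The slope of all genes' library ratios on log2 transcript length put the libraries in nearly the same order. It was -0.24, -0.08 and -0.24 in KO libraries and 0.30, -0.03 and 0.30 in WT libraries, so that short transcripts were most favoured in KO 1 and KO 3 and least in WT 1 and WT 3. Erythroid transcripts followed nearly the same order of libraries, with their 5 markers at 0.496%, 0.235% and 0.644% of nuclear counts in KO libraries and 0.168%, 0.260% and 0.0736% in WT libraries. Of these 5, 2 were called higher in KO, and none had 0 counts in any library. Over all tested genes 1.63% were called higher and 7.52% lower, the shares to set beside this and the marker calls that follow. Among 7 macrophage markers, Lyz2 took 0.0687%, 0.0382% and 0.0842% in KO libraries and 0.0333%, 0.0303% and 0.0137% in WT libraries, while the other 6 together took 0.00459%, 0.00325% and 0.00437% in KO libraries and 0.00632%, 0.00418% and 0.00546% in WT libraries. Of 6 mural cell markers 3 were called higher, and 5 without Rgs5 took 0.0558%, 0.0414% and 0.0455% in KO libraries and 0.0308%, 0.0289% and 0.024% in WT libraries. Most of this sum came from Acta2, Tagln and Myl9. Pdgfrb, also in it, had 127, 167 and 146 counts in KO libraries and 307, 143 and 162 in WT libraries. Cspg4 had 46, 78 and 92 counts in KO libraries and 147, 92 and 58 in WT libraries. Both Pdgfrb and Cspg4 overlapped between the groups. Rgs5 itself took 0.108%, 0.0964% and 0.0453% in KO libraries and 0.24%, 0.154% and 0.143% in WT libraries. Of 8 endothelial markers 3 were called lower, with sums of 0.0704%, 0.0817% and 0.0671% in KO libraries and 0.126%, 0.0657% and 0.105% in WT libraries. Of 6 stromal markers none were called. The part of these cells in the subunit levels was not tested. Brown adipocyte markers (12 genes, 1 called higher and 2 lower) took 5.83%, 4.90% and 4.59% in KO libraries and 4.26%, 5.42% and 4.75% in WT libraries, overlapping between the groups. Muscle markers (10 genes, 8 tested and none called) stood at 0.245% in WT 3, against at most 0.0208% in every other library. Without WT 3 the subunit median was 0.51, against 0.70 with all libraries, and was the lowest of the fits that left out 1 library. There 0 subunit genes were called, against 0.25% of all genes called higher. The part of muscle transcripts in the subunit levels was not tested.

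**Figure D4:**
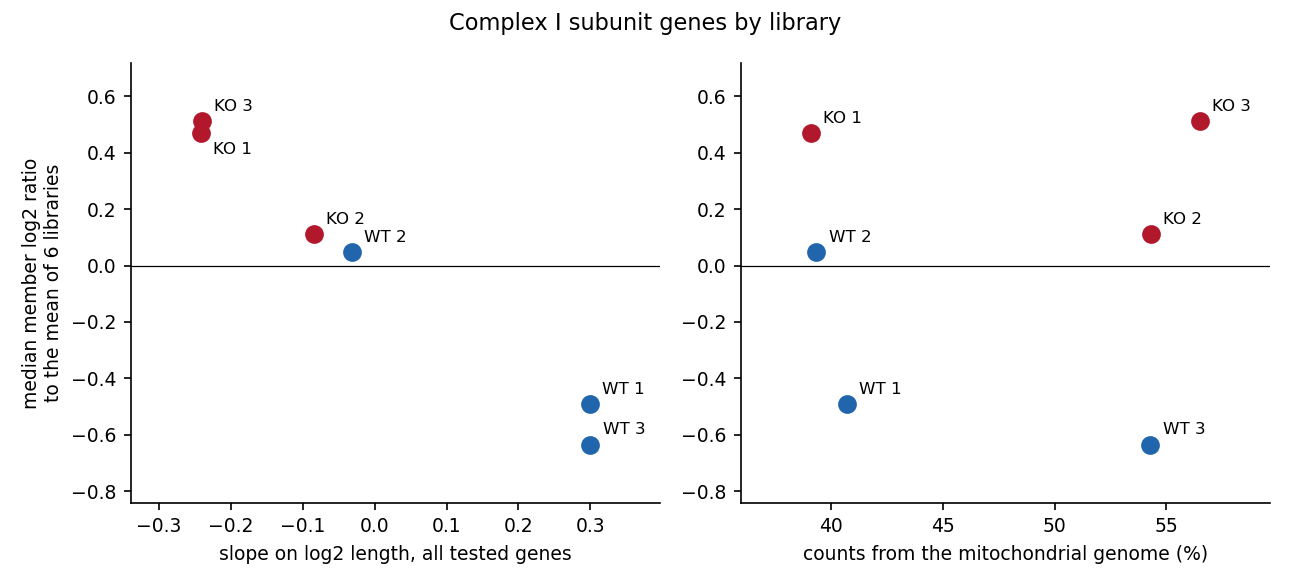
Median log2 ratio of the subunit genes to their mean over 6 libraries, against each library's slope on log2 transcript length over all tested genes (left) and the percent of counts from the mitochondrial genome (right), KO in red and WT in blue. The libraries run from KO 3 at 0.51 to WT 3 at -0.64 along the length slope, with KO 2 and WT 2 side by side, and show no such order by mitochondrial share.

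The calls rest on which libraries are set against each other. Without WT 2, 17 subunit genes passed the test, against 5.58% of all genes called higher. Without KO 1, 7 passed, against 2.41%. Without KO 2, KO 3, WT 1 or WT 3, 0 passed, and of all genes 0.378%, 0.0161%, 0% and 0.25% were then called higher. The median stayed between 0.51 and 0.96, and 37 of 38 genes were above 0 in each of these 6 fits, with Ndufs1 below 0 in each.

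Another difference between libraries went with the mitochondrial share of counts, which was over 50% in KO 2, KO 3 and WT 3 and under 50% in KO 1, WT 1 and WT 2. Within each group, the mean log2 CPM of high-share libraries minus that of low-share libraries had much the same pattern across subunit genes. In WT this is WT 3 minus the mean of WT 1 and WT 2. The difference ran from -0.86 to 0.94 within KO and from -1.25 to 0.29 within WT. Across the 38 genes these within-group differences had a Spearman rho of 0.84, and across all 12068 tested genes of 0.48, as descriptions. By these means, 7 of 38 genes were higher in the high-share libraries of both groups, against 32.8% of all genes. Ndufb4, Ndufa12, Ndufs6, Ndufv3 and Ndufa10 were among them. For each of these named genes, WT 3 lay above WT 1 but below the low-share library WT 2. Ndufb11, Ndufs5 and Ndufc2 were among 23 lower by these means in both groups, against 35.4%.

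The extremes show the size of it. Ndufb4 was higher by mean in high-share libraries, by 0.94 within KO and 0.27 within WT. In WT it had 41.3 CPM in WT 1, 83.7 in WT 2 and 70.9 in WT 3. Ndufb11, an X-linked distal subunit, had 413, 206 and 250 CPM in KO libraries and 198, 271 and 97.1 CPM in WT libraries. Its low-share library KO 1 lay above KO 2 and KO 3, and its high-share library WT 3 lay below WT 1 and WT 2, a difference of -0.86 within KO and -1.25 within WT. Ndufs1 fell outside the common pattern, at -0.69 within KO and -0.06 within WT. Within KO, the difference had a rho of -0.06 with main transcript length and 0.15 with GC content across the 38 genes. The cause of this split was not tested.

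**Figure D5:**
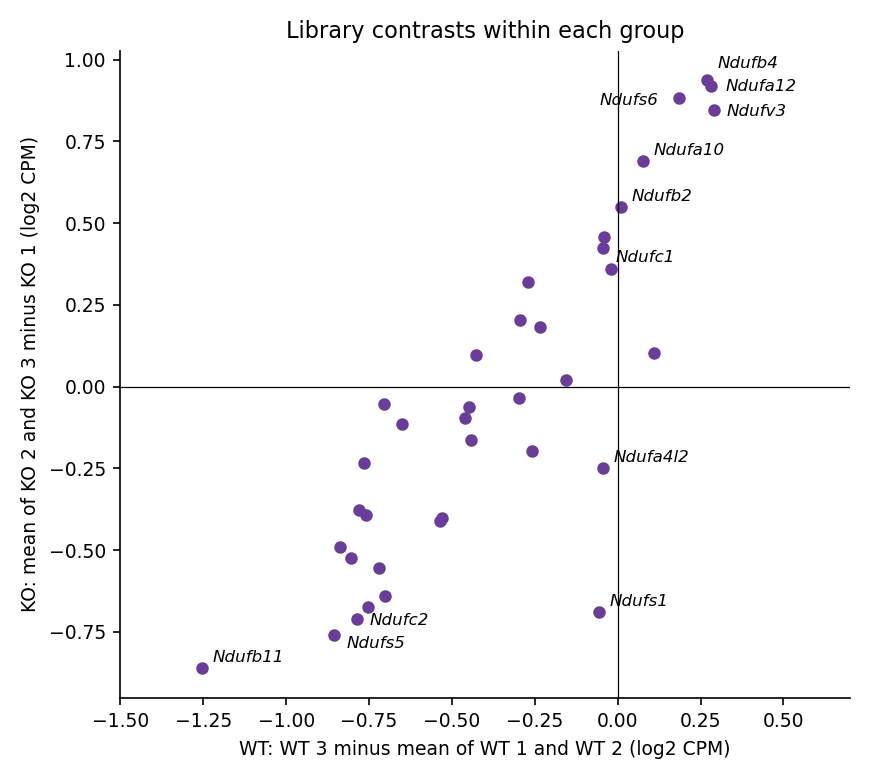
Log2 CPM of high-share minus low-share libraries for 37 subunit genes, within KO (vertical) and within WT (horizontal). The points run along one band from Ndufb11 at -0.86 and -1.25 to Ndufb4 at 0.94 and 0.27, with Ndufs1 apart at -0.69 and -0.06.

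Set side by side within a share class, the difference between genotypes was of like direction. Among low-share libraries, KO 1 lay above the mean of WT 1 and WT 2 for 37 of 38 subunit genes, against 52.1% of all genes, with a median log2 difference of 0.68, against 0.04 over all genes, and Ndufa10 was the exception at -0.14. Among high-share libraries, the mean of KO 2 and KO 3 lay above WT 3 for 37 of 38, against 49.4% of all genes, with a median of 1.00, against -0.02 over all genes, and Ndufs1 was the exception at -0.54. These differences hold 1 library on one side and have no test. With the share class as a term in the edgeR model, a setting added after the data were seen, 23 subunit genes passed an adjusted p of 0.05, against 8.76% of all genes called higher, and 0 were lower, against 14.2%. The median was 0.84. Among those 23 were the core subunits Ndufs3, Ndufs7, Ndufs8, Ndufv1 and Ndufv2. With the length and GC offsets as well, 1 gene passed, against 5.63% of all genes: Ndufv2, at 0.87 (adjusted p = 0.0389). The subunit median was then 0.21, with 32 of 38 above 0, against 52.5% of all genes.

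Other genes tied to complex I are given here by list. The 7 mitochondrially encoded subunits form the proton-pumping core of the membrane arm. Of 5 with enough counts to test, 0 passed, against 1.63% of all genes called higher and 7.52% lower. Their log2 fold changes were 0.71 for mt-Nd1 (adjusted p = 0.304), 0.30 for mt-Nd2, 0.11 for mt-Nd4, -0.03 for mt-Nd5 and 0.10 for mt-Nd6. Together these genes took 9.18%, 16.65% and 17.4% of all counts in KO libraries and 9.70%, 9.17% and 18.5% in WT libraries, following the mitochondrial share in each library and overlapping between the groups. mt-Nd3 had 8, 7 and 7 counts in KO libraries and 4, 6 and 5 in WT libraries, and mt-Nd4l had 1 count in all, and both were too scarce to test. The median of the 5 tested genes was 0.11, and 0.66 with main-transcript and GC offsets. For the nuclear subunits these medians were 0.70 and 0.14, so their order turned with the offsets. None of the 5 passed with the offsets either, at adjusted p from 0.455 for mt-Nd1 to 0.674 for mt-Nd5 by edgeR. Of all genes, 0.00829% were then called higher and 0% lower.

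The assembly factors build the complex and do not stay in it. Of 19 tested, 0 passed, against 1.63% of all genes called higher and 7.52% lower. Log2 fold changes were above 0 for 17, against 51.4% of all genes, and the median was 0.38. Main transcripts had 1573 bases at the median, a length in decile 3, where the median over all tested genes was 0.34. With main-transcript and GC offsets their median was 0.23, above the 0.14 of the nuclear subunits. Ndufaf6 was highest at 0.82 (adjusted p = 0.106) and Ndufaf3 next at 0.77 (adjusted p = 0.0951). Tmem126b was lowest at -0.26 (adjusted p = 0.47).

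Among 14 tested regulators of respiratory chain genes, 0 were called higher and 3 lower, against 1.63% and 7.52% of all genes. Esrrg, an estrogen-related receptor, had 5.40, 6.56 and 1.94 CPM in KO libraries and 19.2, 10.7 and 16.5 CPM in WT libraries and fell by 1.73 on the log2 scale (SE 0.40, adjusted p = 0.0281). Gabpa, the DNA-binding subunit of GABP, had 40.3, 30.2 and 12.3 CPM in KO libraries and 76.5, 61.8 and 82.3 CPM in WT libraries and fell by 1.41 (SE 0.36, adjusted p = 0.0361). Ppargc1a, a coactivator that drives mitochondrial biogenesis, had 15.04, 21.2 and 16.8 CPM in KO libraries and 45.2, 26.8 and 39.4 CPM in WT libraries and fell by 1.07 (SE 0.27, adjusted p = 0.0342). In these 3 and in 1 other of the 14, Tfb2m, every KO library lay below every WT library, against 19.6% of all genes. Gabpb1, a partner of Gabpa, had 31.0, 31.3 and 35.2 CPM in KO libraries and 19.3, 22.9 and 20.6 CPM in WT libraries, every KO library above every WT library, at 0.63 (adjusted p = 0.0882). With the length and GC offsets none of the 3 passed, at -0.95 for Esrrg (adjusted p = 0.118), -1.28 for Gabpa (adjusted p = 0.0667) and -0.08 for Ppargc1a (adjusted p = 0.846), whose main transcript has 6464 bases.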

How the data were processed

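RNA was sequenced from 6 libraries, and for each the authors deposited unnormalized counts, the number of reads assigned to every Ensembl gene ID. STAR 2.5.4b and the build mm9 are named per the submitters' processing notes. The counting program, its strand setting and its annotation are not stated in the sources used. Symbols, lengths, GC content and start codons came from GENCODE M21 on GRCm38 by gene ID (32897 of 37620 IDs matched, and the rest held 0.178% of counts). No coordinates come from the count tables, because the builds differ.

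The labels gave group and replicate number, and no pair of libraries held identical values. The test was that of edgeR 4.0.16 (R 4.3.3): filterByExpr (minimum count 10, minimum total 15), TMM scaling and the robust quasi-likelihood F test, two-sided, with Benjamini-Hochberg adjustment over 12068 genes and a threshold of 0.05. The main transcript of a gene is the one of best APPRIS rank, then best support, then shortest, a choice made after the data were seen in place of the median transcript. Length and GC offsets were smooth trends (mgcv 1.9.3, basis size 6, prior count 2) of each library's log2 ratios. Copies of at least 85% identity were found with BLAST 2.17.0, and the test was checked on simulated counts. Alternatives used DESeq2 1.42.0, limma-voom (limma 3.58.1), other scalings and filters, a replicate block, left-out libraries and offsets, and classes of mitochondrial share were added after the data were seen.

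The members and lists were chosen with earlier results of these data known. Values per library are given for genes past the threshold, the core subunits, Ndufa4 and Ndufa4l2, the 3 longest and 3 shortest by median transcript, and the 3 highest and 3 lowest by fold change. Ndufa12, Ndufab1, Ndufb11 and Ndufs5 were added once their values were known. One member that this rule names is counted in the totals but not reported singly here.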

Additional observations from a re-analysis of the deposited data

How the results depend on the processing

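No setting tried called any complex I subunit gene lower, and 37 of 38 were above 0 under every scaling, filter, tool and left-out library. The count called higher was 2 in the main result. It was 4 with upper-quartile scaling (2.1% of all genes), 0 with total counts only (0.24%), 11 with DESeq2 (4.2%), 1 with limma-voom (1.24%) and 4 with GC offsets alone (2.15%). It was 0 at an adjusted p under 0.01, since the smallest of any subunit gene in the main edgeR result was 0.0399. Offsets for the longest transcript and GC gave 0 (0.00829% of all genes called higher). Offsets for the median transcript and GC (0.671%) and the longest transcript alone (0.0331%) also gave 0. The main transcript gave 0 with GC (0.00829%) and alone (0.141%). The count was 23 with the mitochondrial share class as a term (8.76%) and 1 with that class and offsets together (5.63%). Leaving out 1 library gave 0 to 17 genes higher (17 without WT 2, 7 without KO 1, 0 without each of the others), 0 to 0 lower and medians of 0.51 to 0.96. The median of 0.70 became 0.20 with longest-transcript and GC offsets, 0.21 with longest-transcript offsets, 0.14 with main-transcript and GC offsets, 0.46 with median-transcript and GC offsets, 0.23 with main-transcript offsets and 0.21 with offsets and share class. The causes were not tested.

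With the replicate number as a block, 5 subunit genes were higher, against 1.85% of all genes. Deviations of same-numbered KO and WT libraries had correlations of 0.15, -0.53 and 0.03. The labels do not say whether the numbers pair the libraries, and these correlations across genes cannot decide it.

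These members changed sign. With longest-transcript and GC offsets, Ndufa10 had -0.0249 and Ndufa5 -0.0673. With longest-transcript offsets, Ndufa1 had -0.0449, Ndufa5 -0.0684 and Ndufb3 -0.22. With main-transcript and GC offsets, Ndufa5 had -0.0114, Ndufa6 -0.0895, Ndufa7 -0.0694, Ndufb7 -0.0467, Ndufs5 -0.0295 and Ndufs6 -0.0453. With main-transcript offsets, Ndufa1 had -0.0447, Ndufa5 -0.0286, Ndufab1 -0.0084 and Ndufb3 -0.20. With offsets and share class, Ndufa10 had -0.0608, Ndufa5 -0.14, Ndufa6 -0.10, Ndufa8 -0.0002 and Ndufs6 -0.29.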
